A study of Mus musculus with 8 samples.

Results

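The genes C1qa, C1qb, C1qc, C3, C4b, Cfb and Cfp encode complement components that macrophages are known to make. They were chosen by symbol from a list of complement components and regulators, and all 7 were present in both of the authors' deposited tables, among 14485 genes found in at least 1 of them. RNA sequencing was done on bone-marrow-derived macrophages of female mice aged 12 weeks, either NIK KO (knocked out for NF-κB-inducing kinase, encoded by Map3k14) or WT, 2 mice of each genotype. Marrow cells were grown for 7 days in medium with 30% of the supernatant of L929 cells, a source of the growth factor M-CSF, and replated in 5% of it. Cells of every mouse were then kept for 6 hours with 20 ng/mL IL-4 or with PBS. This gave the groups NIK KO with IL-4, WT with IL-4, NIK KO with PBS and WT with PBS, each of 2 libraries. Neither the strain, nor the deleted part of Map3k14, nor the cells that carry the knockout were stated in the sources used here.

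Complement is a cascade of plasma proteins that marks microbes and dying cells for uptake. C1q, built from the A, B and C chains, recognises the target and starts the classical pathway, which cuts C4 and then C3. The alternative pathway uses factor B, encoded by Cfb, as the protease of its C3-cutting enzyme, and properdin, encoded by Cfp, holds that enzyme together on the surface. Most plasma complement comes from the liver, whereas C1q and properdin are made chiefly by myeloid cells, and C3 and factor B are induced in macrophages by inflammatory stimuli. NIK starts the noncanonical branch of NF-κB signalling, and IL-4 turns macrophages to the alternatively activated state. The comparison of genotypes within each treatment asks whether the RNA of these genes differs without NIK, at rest or under IL-4.

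The deposited tables hold 1 row per gene and no value per library, so each result is a fold change with its standard error (SE) and the mean of each group. Fold changes are log2 of NIK KO over WT. Group means are normalised counts recovered from the authors' base mean and fold change, and library depth is unknown. Map3k14 was higher on the side labelled NIK KO in both of the authors' deposited tables, by 0.99 ± 0.22 with IL-4 (DESeq2 adjusted p = 0.00782) and 1.09 ± 0.28 with PBS (DESeq2 adjusted p = 0.176). A higher level of the targeted gene on the knockout side goes against the label, and whether its reads fall in the deleted part is not known here. Directions are therefore those of the libraries labelled NIK KO. The sign was taken as the IL-4 table's name orders the genotypes. The name of the PBS table does not state an order, and the same order was assumed for it. The 3 genes called in both tables had the same sign in both, but every signed PBS value rests on this assumption. All 8 macrophage markers were present under both treatments, with base means from 288 to 344144 with IL-4 and from 406 to 517389 with PBS in the authors' deposited tables. In bulk RNA, fewer cells of a type and less RNA per cell cannot be told apart.

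None of the 7 complement genes passed the test for a genotype effect (adjusted p under 0.05, the authors' DESeq2 Wald test). The count called was 0 of 7 with IL-4, where 0.12% of 14193 genes were called, and 0 of 7 with PBS, where 0.0366% of 13676 genes were called. At an unadjusted p under 0.05 the count was also 0 of 7 under each treatment, against 2.95% of all genes with IL-4 and 1.24% with PBS in the authors' deposited tables. A count of 0 of 7 is near the background and is no result particular to the members. With IL-4, 5 of the 7 lay above 0 and 2 below, with a median of 0.08, beside -0.01 over all genes. With PBS, 2 lay above and 5 below, with a median of -0.09, beside -0.01 over all genes. The members differed in how narrowly the data bound their change. By 95% intervals from the normal distribution, the C1q genes and Cfp were bounded to modest folds, C3 less closely, and Cfb and C4b over a wide range. Intervals from a t distribution with 2 degrees of freedom would be wider and were not computed.

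**Figure D1:**
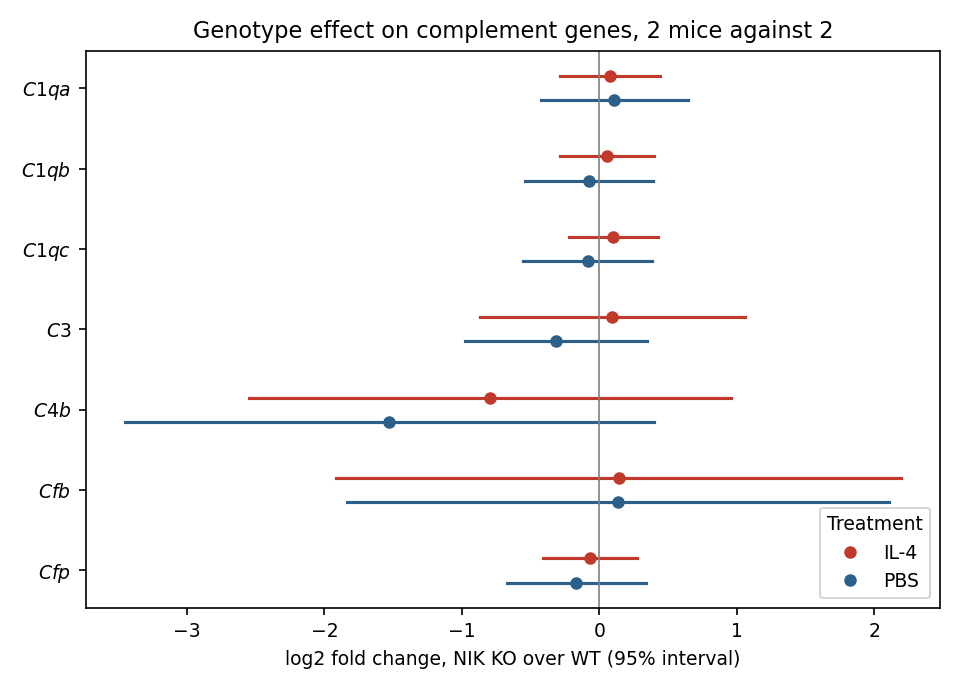
Log2 fold change of NIK KO over WT for the 7 complement genes, IL-4 (red) above PBS (blue), as points with 95% intervals from the authors' standard errors, 2 mice against 2. Every interval spans 0, and those of Cfb reach from -1.91 to 2.19 with IL-4 and from -1.84 to 2.11 with PBS.

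C1qa, C1qb and C1qc, the chains of the recognition molecule, lie on the minus strand of chromosome 4. C3, the component on which the pathways of complement converge, lies on chromosome 17. The RefSeq promoter table (GRCm38.p6) matched 4 of the 7 genes. The windows of C1qb, C1qc and C3 are shown because the C1q pair kept similar proportions in the 4 groups, while C3 had a wider error and a different level between treatments. This choice rests on the same data, and the window of Cfp, also matched, is not shown. Each window runs 5′ to 3′ from 250 bases before to 50 bases after the annotated start, on the minus strand. C1qb is at chr4:136886151-136886450, C1qc at chr4:136892865-136893164 and C3 at chr17:57228087-57228386. Capitals mark matches, on either strand, to any of the motifs searched.
C1qb: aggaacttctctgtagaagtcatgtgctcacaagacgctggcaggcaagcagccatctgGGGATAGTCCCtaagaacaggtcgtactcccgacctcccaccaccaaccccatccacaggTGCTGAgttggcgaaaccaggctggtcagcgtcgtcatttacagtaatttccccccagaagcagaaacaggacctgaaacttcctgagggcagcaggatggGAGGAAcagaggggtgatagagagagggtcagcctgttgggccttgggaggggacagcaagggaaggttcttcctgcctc
C1qc: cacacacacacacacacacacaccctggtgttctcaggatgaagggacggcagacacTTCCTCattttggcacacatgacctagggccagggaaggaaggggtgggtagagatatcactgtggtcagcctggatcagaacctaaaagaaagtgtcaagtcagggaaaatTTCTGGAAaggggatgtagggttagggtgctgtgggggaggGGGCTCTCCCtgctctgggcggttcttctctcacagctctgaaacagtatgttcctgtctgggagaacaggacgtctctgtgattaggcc
C3: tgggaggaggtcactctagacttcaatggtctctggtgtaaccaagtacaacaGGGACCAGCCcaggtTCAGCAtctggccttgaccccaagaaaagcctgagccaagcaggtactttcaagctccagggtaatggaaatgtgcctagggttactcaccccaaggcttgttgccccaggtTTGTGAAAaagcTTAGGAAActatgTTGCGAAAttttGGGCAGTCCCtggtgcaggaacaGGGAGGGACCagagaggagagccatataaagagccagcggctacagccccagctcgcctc

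The motifs searched were a PU.1 core (GAGGAA), a MAF core (TGCTGA), a C/EBP site (TTNNGNAA), a STAT site (TTCNNNGAA), a STAT6 site (TTC and GAA with 4 free bases between), an interferon response element (GAAA repeated after 2 free bases) and a κB site (GGGA and CC with 4 free bases between). PU.1 and the MAF factors are known regulators of macrophage genes, and C/EBP and NF-κB factors are known to act on C3. Positions count from the annotated start and give the leftmost base of a match. The C1qb window held a PU.1 core at -30, a MAF core at -131 and κB letters on opposite strands at -191 and -190, which overlap. The C1qc window held a PU.1 core at -193, a C/EBP match at -81 and a κB match at -40. The C3 window held C/EBP matches at -70, -58 and -45, the last on both strands, κB matches at -197, -33 and -10, and a MAF core at -182. The Cfp window, not shown, held 2 PU.1 cores after the start, at 7 and 23. It held no match to the MAF, C/EBP or κB letters. The STAT, STAT6 and interferon letters were not in these windows. Among all 32851 RefSeq windows of this length, 28.3% held the PU.1 core, 19.5% the MAF core, 40.7% the C/EBP letters and 20.7% the κB letters. The STAT, STAT6 and interferon letters stood in 8.30%, 6.95% and 3.44% of them. A match describes the letters and is no record of binding.

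The C1q genes were strongly expressed in every group, and their group means were close between the genotypes. With IL-4, C1qb averaged 18684 normalised counts in NIK KO macrophages and 18004 in WT. With PBS it averaged 13439 in NIK KO and 14163 in WT. The authors' deposited table puts C1qb at 0.05 ± 0.18 with IL-4 (adjusted p = 1.00 by DESeq2), a 95% interval of 0.818 to 1.32-fold. With PBS the authors' deposited table gives -0.08 ± 0.24, an interval of 0.687 to 1.31-fold. A change of C1qb by a factor of 2 in either direction lies outside both intervals, which rest on the normal distribution. Under a t distribution with 2 degrees of freedom they would be wider, and whether such a change stays outside was not computed.

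C1qc averaged 11006 normalised counts in NIK KO and 10255 in WT with IL-4, and 8378 in NIK KO and 8896 in WT with PBS. Its fold change in the authors' deposited tables was 0.10 ± 0.16 with IL-4 and -0.09 ± 0.24 with PBS, with intervals of 0.858 to 1.34-fold and 0.680 to 1.30-fold. C1qa averaged 7795 in NIK KO and 7389 in WT with IL-4, and 5979 in NIK KO and 5550 in WT with PBS. The authors' deposited tables have C1qa at 0.08 ± 0.19 with IL-4 and 0.11 ± 0.27 with PBS, with intervals of 0.820 to 1.36-fold and 0.743 to 1.56-fold. For the A, B and C chains alike, the genotypes differed by less than 1 standard error under each treatment.

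Scaled to the longest annotated transcript (1088 bases for C1qb, 1203 for C1qc and 1040 for C1qa), the chains kept similar proportions in the 4 groups. C1qb made up 50.8% of the summed C1q level per kilobase in NIK KO and 51.4% in WT with IL-4, and 49.3% in NIK KO and 50.6% in WT with PBS. C1qc made up 27.1% in NIK KO and 26.5% in WT with IL-4, and 27.8% in NIK KO and 28.7% in WT with PBS. C1qa made up 22.2% in NIK KO and 22.1% in WT with IL-4, and 22.9% in NIK KO and 20.7% in WT with PBS. The C1q protein holds its chains in equal number, and on this scale the RNA of C1qb stood above the other chains in each group. These shares carry no error, since no value per library was at hand, and they rest on the annotated lengths.

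Cfp, which encodes properdin, lies on the X chromosome (ENSMUSG00000001128), and all mice were female. It averaged 7346 normalised counts in NIK KO and 7697 in WT with IL-4, and 5748 in NIK KO and 6460 in WT with PBS. The authors' deposited table gives Cfp at -0.07 ± 0.17 with IL-4 (adjusted p = 1.00 by DESeq2), an interval of 0.754 to 1.21-fold. With PBS the authors' deposited table gives -0.17 ± 0.26, an interval of 0.626 to 1.26-fold. Properdin RNA was bounded about as closely as that of the C1q chains.

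C3 (ENSMUSG00000024164) averaged 16675 normalised counts in NIK KO and 15627 in WT with IL-4, and 5892 in NIK KO and 7332 in WT with PBS. The authors' deposited table gives C3 a fold change of 0.09 ± 0.49 with IL-4, an interval of 0.547 to 2.08-fold. With PBS the authors' deposited table gives -0.32 ± 0.34, an interval of 0.508 to 1.27-fold. By these intervals from the normal distribution, a rise by a factor of 2 lies inside with IL-4 and outside with PBS. The standard error of C3 with IL-4 was 3.10 times the median of the 200 genes nearest in base mean, of which 99.0% had a smaller one. With PBS the ratio was 1.34, and 97.5% of such genes had a smaller one.

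Cfb, which encodes factor B (ENSMUSG00000090231, chromosome 17), averaged 274 normalised counts in NIK KO and 249 in WT with IL-4, and 598 in NIK KO and 544 in WT with PBS. The authors' deposited tables give Cfb nearly the same fold change under both treatments, each with a wide error, 0.14 ± 1.05 with IL-4 and 0.14 ± 1.01 with PBS. The intervals run from 0.266 to 4.57-fold with IL-4 and from 0.280 to 4.31-fold with PBS, so a change by a factor of 3 in either direction lies inside both. Its standard error was 3.66 times the median of the 200 genes nearest in base mean with IL-4 and 3.55 times with PBS. In DESeq2 a standard error above that of genes of like level reflects a wider spread between libraries of the same group. Under the negative binomial variance that DESeq2 uses, it corresponds to a coefficient of variation between libraries of a group of 72.3% with IL-4 and 69.6% with PBS. The same calculation gives 34.1% and 23.3% for C3 and 12.1% and 16.5% for C1qb. These percentages are derived from the fitted errors and were not measured from values per library. The error of C1qb was 1.10 times that of genes of like level with IL-4 and 0.97 times with PBS, so its percentages are near those of such genes. Which libraries were high or low in Cfb is not visible in these tables. Of the 31-base words in the longest Cfb transcript, 81.5% also occur in Gm20547, a gene annotated over Cfb, which has no row in either table, and how reads were divided between them was not tested.

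**Figure D2:**
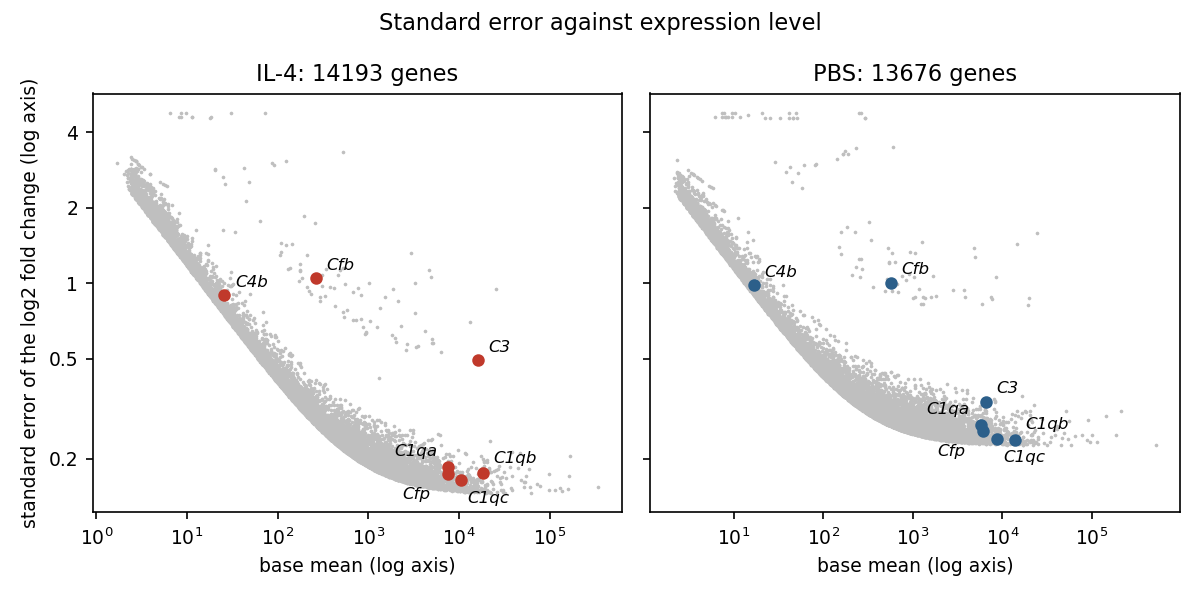
Standard error of the log2 fold change against base mean, both on log axes, for every gene (grey) and the complement genes (coloured), IL-4 at left and PBS at right. Cfb stands above the main band in both panels and C3 in the IL-4 panel, at standard errors of 1.05 and 1.01 for Cfb and 0.49 for C3 with IL-4, while the C1q genes and Cfp sit within the band.

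Among genes of base mean 100 or more, 25 of 9513 with IL-4 (0.263%) and 44 of 9266 with PBS (0.475%) had a standard error at least as large as that of Cfb, Cfb included. By a looser measure, 76 of 9513 with IL-4 (0.799%) and 66 of 9266 with PBS (0.712%) had a standard error at least 2 times that of genes of like level. Both tables had this for 33 of 9148 genes (0.361%), Cfb among them. The factor of 2 was chosen after the values were seen.

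C4b encodes C4 of the classical pathway (ENSMUSG00000073418, chromosome 17) and was close to the lower limit of the measurement. It averaged 18.9 normalised counts in NIK KO and 32.9 in WT with IL-4, and 8.67 in NIK KO and 25.0 in WT with PBS. The authors' deposited tables give C4b at -0.80 ± 0.89 with IL-4 (p = 0.373 and adjusted p = 1.00 by DESeq2) and -1.53 ± 0.98 with PBS (p = 0.120 and adjusted p = 1.00 by DESeq2). The intervals reach from 0.171 to 1.94-fold with IL-4 and from 0.0913 to 1.32-fold with PBS, so no direction could be read. Its errors were nearer to those of genes of like level, whose medians were 0.78 with IL-4 and 0.93 with PBS. Of its 31-base words 48.8% also occur in C4a, a near-identical copy, which has no row in either table, and how reads were divided between them was not tested.

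Stromal cells are another known source of C4. Fibroblast and stroma markers had a median of -1.52 with IL-4 and -0.09 with PBS, and C4b stood at -0.80 and -1.53 in the authors' deposited tables. Of 9 fibroblast and stroma markers measured with IL-4, 8 lay below 0, with a summed level of 288 normalised counts in NIK KO and 701 in WT. With PBS 8 of the 9 were measured, 5 of them below 0, with sums of 163 in NIK KO and 203 in WT. The liver and yolk sac markers summed to 233 in NIK KO and 541 in WT with IL-4, and to 167 in NIK KO and 186 in WT with PBS. In each of these lists 1 marker was called with IL-4 and 0 with PBS, beside 0.12% and 0.0366% of all genes. The summed markers of other cells were also lower in NIK KO with IL-4, but the counts below 0 differed between lists. The macrophage markers likewise summed lower in NIK KO with IL-4, 466033 against 491470 in WT, with 5 of 8 above 0. A lower sum is therefore not particular to other cells. Erythroid markers summed to 154 in NIK KO and 341 in WT with IL-4, and to 103 in NIK KO and 96.1 in WT with PBS, with 4 of 5 below 0 with IL-4 and 2 of 5 with PBS. The B and T cell markers measured with IL-4, 2 of 7, summed to 18.0 in NIK KO and 44.5 in WT. Neutrophil markers summed to 173 in NIK KO and 242 in WT with IL-4, with 3 of 5 below 0. Dendritic cell markers with IL-4 summed to 1813 in NIK KO and 1889 in WT, with 3 of 6 below 0 and a median of 0.05. Of these sums Itgax, also listed here as a complement receptor, held 1710 in NIK KO and 1772 in WT. The part of other cells in the level of C4b was not tested.

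**Figure D3:**
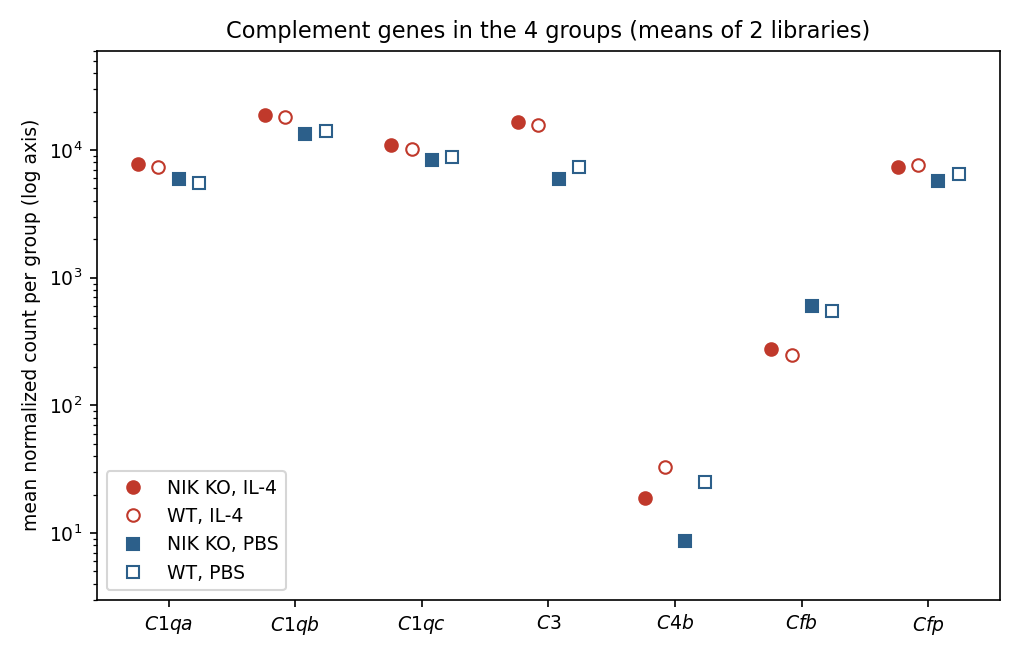
Mean normalised count (log axis) of the 7 complement genes in the groups NIK KO with IL-4, WT with IL-4, NIK KO with PBS and WT with PBS, in that order from left to right within each gene, each a mean of 2 libraries with no error bar because no value per library was at hand. Points of a treatment lie close together for all genes but C4b, and among the other 6 genes the treatments lie farthest apart for C3, higher with IL-4, and Cfb, lower with IL-4.

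Per kilobase of the longest transcript, the order of levels was the same in all 4 groups: C1qb, C1qc, C1qa, Cfp, C3, Cfb and C4b. C1qb stood at 17173 normalised counts per kilobase in NIK KO with IL-4, at 16547 in WT with IL-4, at 12352 in NIK KO with PBS and at 13017 in WT with PBS. C3 stood at 3247 per kilobase in NIK KO and 3043 in WT with IL-4, and at 1147 in NIK KO and 1428 in WT with PBS. Cfb stood at 99.8 per kilobase in NIK KO and 90.6 in WT with IL-4, and at 217 in NIK KO and 198 in WT with PBS. Differences between genes have no test here, since the spread over libraries is not in the tables.

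The levels with IL-4 and with PBS come from tables normalised separately, so their ratio has no test and is read beside that of other genes. Over 9148 genes of base mean 100 or more in both tables, the median ratio of IL-4 to PBS was 1.21 in NIK KO and 1.20 in WT. C3 had a ratio of 2.83 in NIK KO and 2.13 in WT, above 98.5% and 97.1% of those genes. Cfb had a ratio of 0.459 in NIK KO and 0.458 in WT, with 0.689% and 0.623% of those genes lower. The components of the alternative pathway C3-cutting enzyme thus had mean ratios at opposite ends of the range. The genotype errors of Cfb were 3.66 and 3.55 times those of genes of like level with IL-4 and PBS. Those of C3 were 3.10 and 1.34 times. With 2 libraries per group, ratios of means for such widely spread genes are loosely determined, and their ranks carry no error. C1qa, C1qb, C1qc and Cfp had ratios from 1.28 to 1.39 in NIK KO and from 1.15 to 1.33 in WT, near the median of all genes.

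None of the 7 genes passed the test of whether the genotype effect differed between treatments, IL-4 minus PBS (z test on the deposited fold changes with Benjamini-Hochberg adjustment). It called 0 of 7, where 0.0149% of 13384 genes were called, and the lowest unadjusted p among the members was 0.493. The difference for C3 was 0.41 ± 0.60, from 0.09 with IL-4 and -0.32 with PBS in the authors' deposited tables (adjusted p = 1.00 by the z test). The difference was -0.03 ± 0.33 for C1qa, 0.13 ± 0.30 for C1qb, 0.19 ± 0.29 for C1qc and 0.10 ± 0.31 for Cfp. The 95% intervals of these 4 genes lay between -0.68 and 0.76 on the log2 scale. For Cfb the interval ran from -2.84 to 2.85 and for C4b from -1.87 to 3.33. The test takes the errors of the tables as independent, although the same mice stand behind both.

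Of 54 other complement genes listed by role, 28 were measured with IL-4 and 26 with PBS. Under either treatment 0 were called, beside 0.12% of all genes with IL-4 and 0.0366% with PBS. With IL-4, 14 lay above 0 and 14 below, with a median of -0.01. With PBS, 15 lay above and 11 below, with a median of 0.03. At an unadjusted p under 0.05 stood 2 of 28 with IL-4 and 0 of 26 with PBS, beside 2.95% and 1.24% of all genes.

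**Figure D4:**
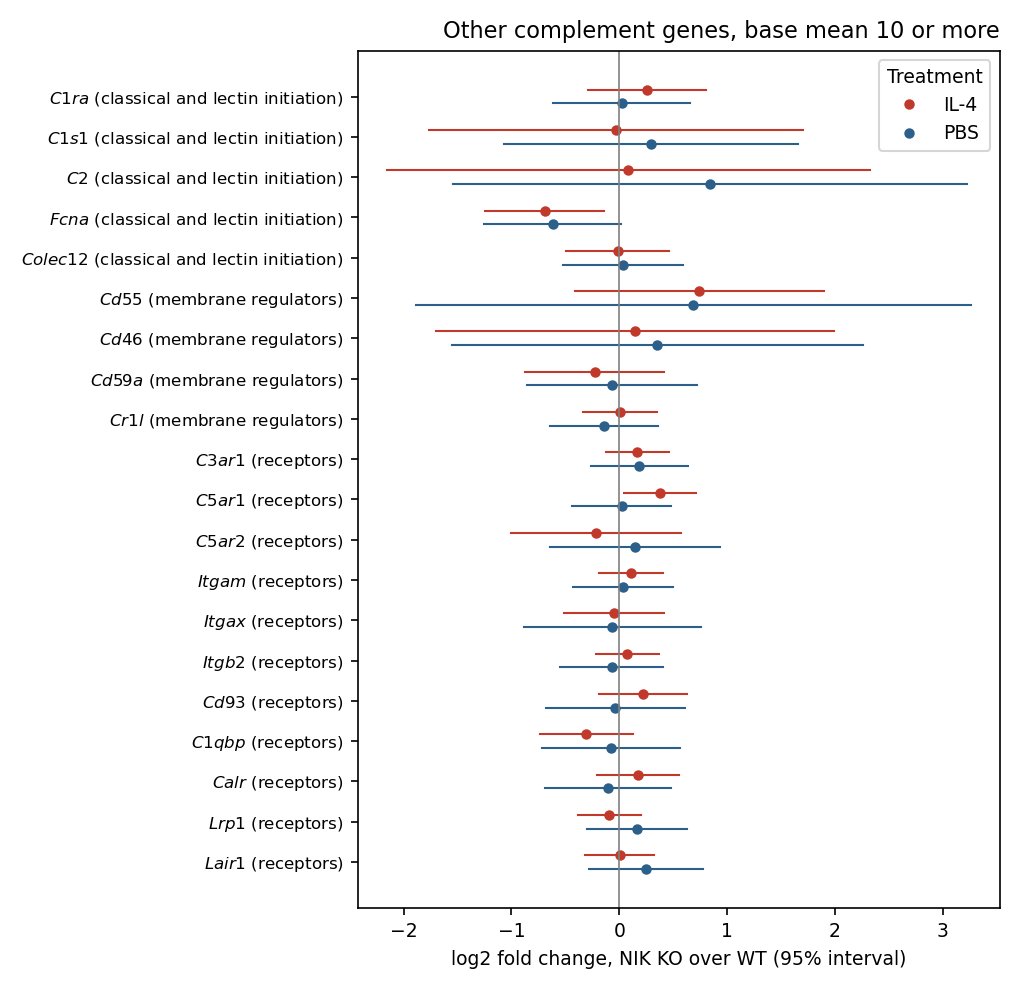
Log2 fold change of NIK KO over WT with 95% intervals for 20 other complement genes of base mean 10 or more in both tables, grouped by role, IL-4 (red) above PBS (blue). The intervals of Fcna and C5ar1 with IL-4 lie to 1 side of 0, from -1.24 to -0.14 and from 0.05 to 0.71, without adjustment for the number of genes tested.

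The initiators of the classical and lectin pathways numbered 7 measured genes under each treatment, of which 4 lay above 0 with IL-4 and 5 with PBS. Fcna, which encodes ficolin A, a lectin that recognises sugars on microbes and is made by macrophages, averaged 192 normalised counts in NIK KO and 310 in WT with IL-4. With PBS it averaged 194 in NIK KO and 297 in WT. The authors' deposited tables give Fcna at -0.69 ± 0.28 with IL-4 (p = 0.0134 and adjusted p = 1.00 by DESeq2) and -0.62 ± 0.32 with PBS (p = 0.0553 and adjusted p = 1.00 by DESeq2). Its NIK KO mean was lower under both treatments, and neither value passed. The same mice stand behind both treatments and the PBS sign is assumed, so the second value is no independent repeat. The C1r protease gene C1ra was at 0.26 ± 0.28 with IL-4 and 0.02 ± 0.32 with PBS, and the collectin gene Colec12 at -0.02 ± 0.25 and 0.03 ± 0.28, in the authors' deposited tables.

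Cfd, which encodes factor D of the alternative pathway, and Hc, which encodes C5, the first component of the terminal pathway, had no row in either table. C8g was the 1 measured gene of the terminal pathway, at 14.8 normalised counts in NIK KO and 16.5 in WT with IL-4. Of the soluble regulators, 4 were measured with IL-4 and 2 with PBS, all below 0. Clu, which encodes clusterin, averaged 0.507 in NIK KO and 9.34 in WT with IL-4, and 1.04 in NIK KO and 6.04 in WT with PBS, levels too low to read a change.

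Of the membrane regulators, which protect host cells, 3 of 5 lay above 0 with IL-4 and 2 of 4 with PBS. Cr1l, which encodes the rodent regulator Crry, averaged 1628 in NIK KO and 1622 in WT with IL-4, and 1212 in NIK KO and 1335 in WT with PBS. The authors' deposited tables have Cr1l at 0.01 ± 0.18 with IL-4 and -0.14 ± 0.26 with PBS. Cd59a, an inhibitor of the membrane attack complex, was at -0.23 ± 0.33 with IL-4 and -0.07 ± 0.40 with PBS in the authors' deposited tables.

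Of the receptors, 7 of 11 lay above 0 with IL-4 and 7 of 12 with PBS. C5ar1, the receptor of the fragment C5a, averaged 2894 normalised counts in NIK KO and 2226 in WT with IL-4, and 3546 in NIK KO and 3494 in WT with PBS. The authors' deposited tables have C5ar1 at 0.38 ± 0.17 with IL-4 (p = 0.0258 and adjusted p = 1.00 by DESeq2) and 0.02 ± 0.23 with PBS. Itgam, the α chain of complement receptor 3, which binds C3 fragments, was at 0.11 ± 0.15 with IL-4 and 0.03 ± 0.24 with PBS in the authors' deposited tables. Calr, which encodes calreticulin, a binding partner of C1q, was at 0.17 ± 0.19 with IL-4 and -0.10 ± 0.30 with PBS in the authors' deposited tables.

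All 16 listed transcription factors known to act on such genes were measured. The count called was 0 with IL-4 and 0 with PBS, beside 0.12% and 0.0366% of all genes. With IL-4, 10 lay above 0 and 6 below (median 0.06), and with PBS 7 lay above and 9 below (median -0.03). Maf, a factor of mature macrophages, averaged 2551 normalised counts in NIK KO and 2044 in WT with IL-4, and 5054 in NIK KO and 3387 in WT with PBS. The authors' deposited tables have Maf at 0.32 ± 0.18 with IL-4 (p = 0.0758 and adjusted p = 1.00 by DESeq2) and 0.58 ± 0.24 with PBS (p = 0.0160 and adjusted p = 1.00 by DESeq2). Spi1, which encodes PU.1, was at 0.07 ± 0.18 and -0.15 ± 0.27, and Stat6, the factor that carries the IL-4 signal, at 0.19 ± 0.16 and -0.12 ± 0.25 (IL-4 and PBS, the authors' deposited tables).

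Cebpb, which encodes the inflammatory factor C/EBPβ, had wide errors under both treatments, as Cfb did. It averaged 2425 normalised counts in NIK KO and 2933 in WT with IL-4, and 3508 in NIK KO and 3980 in WT with PBS. The authors' deposited tables have Cebpb at -0.27 ± 0.58 with IL-4 and -0.18 ± 0.94 with PBS, errors 3.37 and 3.74 times those of genes of like level. Cebpd was at -0.50 ± 0.36 with IL-4 and -0.17 ± 0.42 with PBS in the authors' deposited tables. Irf1, Irf8, Cebpa, Nr1h3 and Pparg and the NF-κB subunit genes Nfkb1, Rela, Nfkb2 and Relb lay between -0.13 and 0.18 with IL-4 and between -0.51 and 0.31 with PBS in the authors' deposited tables.

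By a fixed measure of likeness, the distance between the 4 group levels on the log2 scale after centring each gene on its mean, the genes nearest to the mean C1q profile among 9127 of base mean 100 or more were Dis3l, Kctd20, Idh1, Eed and Tes. Their distances ran from 0.00736 to 0.0186, below those of C1qb (0.0605), C1qc (0.0868) and C1qa (0.0934) from their own mean. A profile close between genotypes and near the median of all genes between treatments is shared with many genes. The distance also takes in the levels of treatments that were normalised separately. The nearest gene to Cfp was BC003331 (0.00821), to Cfb it was Slfn1 (0.0633) and to C3 it was Hipk2 (0.0704). C4b was below the level needed for this measure.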

How the data were processed

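The 8 libraries were tied by the labels to 2 tables of per-gene results, 1 per treatment, each over 4 libraries. Salmon 1.4.0, DESeq2 1.32.0 and build GRCm39 are named in the submitters' processing notes, whereas their roles, annotation and filters were not stated in the sources used here. The columns deposited by the authors are, per the file headers, a base mean (a signal, counts divided by size factors and averaged over libraries), a log2 fold change, the standard error of that log2 value, a Wald statistic (a score), a p-value and an adjusted p-value. The deposited Wald statistic equalled the fold change over its standard error to within 1.44e-07. The deposited IL-4 table lacks an adjusted p for 551 genes, which were not counted as called.

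From these, group means were computed as base mean and fold change allow with equal groups, 95% intervals from the normal distribution, and the difference between treatments by a z test over 13384 genes. The Benjamini-Hochberg adjustment and the z test were tested on simulated fold changes drawn with the deposited standard errors, independent between treatments. The other steps were not tested in this way. Each error was set against the 200 genes nearest in base mean. Transcript lengths and shared 31-base words came from GENCODE M21 (GRCm38), which is not the authors' build, and were used for no coordinates. Where a symbol had 2 identifiers, as Itgam did, the one with the higher base mean was used. Python 3.11.15, numpy 2.4.6, pandas 2.3.3, scipy 1.17.1 and matplotlib 3.10.9 were used. Other complement genes were named where a p was under 0.05 in either table or where they were among the 2 highest of their role, and some genes that enter the counts are not reported here by name. The members and lists were chosen with earlier results of these data known, and so were the motifs. Precision is set by 2 mice per group, and depth per library is unknown.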

Additional observations from a re-analysis of the deposited data

How the results depend on the processing

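The members called stayed at 0 of 7 under every alternative run. These were genes of base mean 10 or more alone, no filter on low values, a t distribution with 2 degrees of freedom, centring on the median of all genes or on the 200 genes nearest in base mean, and, for the difference, errors correlated at 0.5. Of 70 member values computed under alternatives, 69 kept their direction and their side of the threshold. Only centring changes a fold change, so under the other alternatives the direction was fixed in advance. No member was near the threshold, so keeping its side says little. Centring on the 200 genes nearest in base mean moved 5 small values by over 1.5 times, each within its error: with IL-4, C1qa to 0.05 against 0.08 and C1qb to 0.02 against 0.05, and with PBS, C1qa to 0.06 against 0.11, C1qb to -0.13 against -0.08 and C1qc to -0.14 against -0.09. The 1 value that changed direction was the Cfb difference between treatments. It was 0.0029 and became -0.00068 after centring on the median of all genes, both far within its error. Over all genes, a t distribution with 2 degrees of freedom called 0 genes with IL-4 and 0 with PBS, and errors correlated at 0.5 raised the genes called in the difference to 20, against 2. No paired analysis was possible because the deposited tables hold no value per library, and for the same reason no replicate could be left out. C4b could not be summed with C4a, which has no row. The 2 mice per genotype and the unknown depth limit what C4b and Cfb can show.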

Other observations

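Of 9148 genes of base mean 100 or more in both tables, 13 had a standard error at least as large as that of Cfb in both, Cfb included. The other 12 were Acod1, Ccl5, Cxcl1, Cxcl3, Fpr2, Gm20388, Gm5601, Lox, Mmp14, Saa3, Siglece and Slc13a3, chosen after their values were seen. Acod1, which encodes the enzyme that makes itaconate, averaged 4875 normalised counts in NIK KO and 4378 in WT with IL-4, and 8664 in NIK KO and 8127 in WT with PBS. The authors' deposited tables have Acod1 at 0.16 ± 1.13 with IL-4 and 0.09 ± 1.06 with PBS. Saa3, an acute phase gene, was at 0.01 ± 1.32 with IL-4 and 0.13 ± 1.27 with PBS, and the chemokine gene Ccl5 at -0.15 ± 1.13 and -0.01 ± 1.07 (the authors' deposited tables). The chemokine gene Cxcl1 was at -1.06 ± 1.14 with IL-4 and -0.73 ± 1.16 with PBS (the authors' deposited tables). Over the 12 genes and both treatments, fold changes in the authors' deposited tables ran from -3.25 (Gm5601 with PBS) to 1.13 (Lox with PBS), and errors were 3.04 to 12.3 times those of genes of like level. Cd14, the lipopolysaccharide co-receptor gene, resembled C3 in that its error was 3.86 times that of genes of like level with IL-4 and 1.45 times with PBS. Cd55, a membrane regulator, went the other way, at 1.42 times with IL-4 and 3.42 times with PBS. Both were picked by name, and with IL-4 76 of 9513 genes (0.799%) had an error at least 2 times that of genes of like level. Whether the same libraries were high in all of these genes was not tested.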
